A study of Mus musculus with 4 samples.

Results

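The T-box and maturation transcription factors of natural killer (NK) cells were followed as 7 genes named by symbol: Tbx21, Eomes, Zeb2, Prdm1, Irf8, Runx3 and Zfp683. NCBI Gene numbers came from RefSeq's table for GRCm38.p6, and 6 of the 7 are among the 17723 gene numbers that the files list. NK cells from the spleen of C57BL/6J mice, labelled 6 to 8 weeks old, had been sorted into DNAM-1+ and DNAM-1- cells, where DNAM-1 (encoded by Cd226) is an activating receptor. The normal spleens were taken at day 0, and the acute myeloid leukaemia (AML) spleens at day 17 after unirradiated mice had received GFP-positive MLL-AF9 leukaemia cells from other leukaemic mice. The 4 groups hold 1 library each, and runs of values below begin with normal spleen (the DNAM-1+ subset, then the DNAM-1- subset) and continue with AML spleen in the same way. A difference between libraries therefore has no replicate check. The labels used here do not state the other sort gates, nor how many mice stand behind a library or whether they were pooled.

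T-bet (Tbx21) and Eomes are related T-box proteins that bind DNA and together direct NK cell development and effector gene expression in mice. T-bet is needed for the last steps of maturation, where it acts with the zinc finger repressor ZEB2, and Blimp-1 (Prdm1), IRF8 and RUNX3 also take part in maturation or in the responses of mature cells. Hobit (Zfp683), a relative of Blimp-1, is known in mice from tissue-resident lymphocytes and from type 1 innate lymphoid cells (ILC1) of the liver.

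The levels are FPKM (fragments per kilobase of transcript, scaled to the mapped fragments of the library) as deposited, a scale on which genes can be compared with each other. The log2 ratios were taken after adding 1 FPKM to both values. The background of a comparison was every gene whose higher library reached 5 FPKM. The libraries list 15460 to 16161 genes, and their depth, estimated from the steps of microRNA values, was 8700000 to 8900000 fragments, although a multiple of that depth fits those steps as well. The sort shows in Cd226, at 38.6, 0.45, 36.1 and 0.58 FPKM in that order, while the NK receptor gene Ncr1 was at 573, 383, 597 and 423 FPKM. In bulk RNA, fewer cells of a type and less RNA per cell cannot be told apart.

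The members fell into 4 tiers of level. Eomes (lowest 211, highest 231 FPKM over the 4 libraries), Irf8 (185 to 248) and Tbx21 (147 to 218) had overlapping ranges, so their order was not the same in every library. Runx3 (91.8 to 104), Zeb2 (38.5 to 54.9) and Prdm1 (18.2 to 23.4) followed, and none of these ranges overlapped the next. Tbx21 varied most, with its highest library 1.48 times its lowest, against 1.42 times for Zeb2 and 1.09 times for Eomes. In the DNAM-1+ normal library Eomes ranked 269 and Tbx21 272 among 15600 listed genes, and Prdm1 ranked 3977. These levels correspond to an estimated 838 reads or more per member and library, taking the longest coding transcript.

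**Figure D1:**
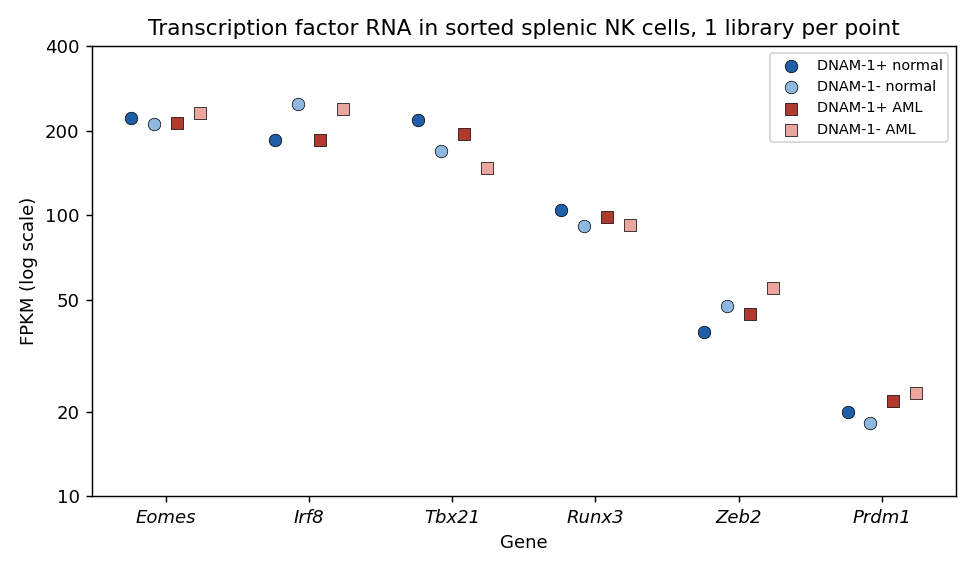
FPKM (log axis) of the 6 listed transcription factor genes, ordered by median level, with 1 point per library and no error because each group holds 1 library. Tbx21 is higher in the DNAM-1+ library of each spleen, Irf8 and Zeb2 are lower there, and Eomes stays between 211 and 231 FPKM.

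Zfp683 was listed in none of the 4 files and is at 0 by rule. The RefSeq table of GRCm38.p6 classes it as a pseudogene, and of the 9955 gene numbers in that class 5 are listed in any library, whereas the GENCODE vM21 annotation classes it as protein-coding. Whether the authors' annotation held this gene is not given in the sources used here, so its 0 was not read as a lack of Hobit RNA.

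In both spleens Tbx21 RNA was more abundant in the DNAM-1+ subset. The normal spleen gave 218 against 169 FPKM and the AML spleen 194 against 147 FPKM, log2 ratios of 0.37 and 0.40. Both DNAM-1+ libraries lay above both DNAM-1- libraries, and the ratio exceeded that of 92.9% and 94.8% of the genes compared. Tbx21 was the 1 of 6 members at least 1.2-fold higher, in each spleen, beside 12.7% of all genes in normal and 11.4% in AML spleen.

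The mean difference over both spleens was tested with limma, fitted to the 9074 genes that reached 5 FPKM in at least 1 library, with subset and spleen as terms. The fit has 1 residual degree of freedom and measures no spread between mice. Tbx21 rose by 0.38 on the log2 scale in DNAM-1+ cells (SE 0.06, adjusted p = 0.00792), 1 member of 6 against 7.35% of all genes that rose. Levels were also divided by the geometric mean of 8 NK marker genes in each library, a scaling chosen after the data had been seen. The 8 include Gzma and Prf1, also on the list below of genes raised under T-bet or ZEB2, and Il2rb, also on the Eomes-linked list. With this NK marker scaling the Tbx21 difference was 0.17 and was not called (adjusted p = 0.0655).

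Eomes, the other T-box gene, was at 221, 211, 212 and 231 FPKM. The groups overlapped, with the highest value in DNAM-1- AML cells and the lowest in DNAM-1- normal cells. Its log2 ratio of DNAM-1+ to DNAM-1- cells was 0.070 in normal and -0.12 in AML spleen, and the first turned to -0.17 with NK marker scaling. The limma estimate was -0.02, with a 95% interval from -0.19 to 0.14 (adjusted p = 0.85), and -0.24 with NK marker scaling, where it was called (adjusted p = 0.0273). That scaling called 2943 of 9074 genes lower and moved the median DNAM-1 ratio of all genes to -0.22 (normal) and -0.16 (AML).

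The balance of both T-box genes within a library does not depend on how libraries are scaled. The FPKM of Tbx21 divided by that of Eomes in normal spleen was 0.986 for the DNAM-1+ and 0.800 for the DNAM-1- subset, and in AML spleen 0.915 and 0.638. It was thus lower in DNAM-1- cells of each spleen, and lower in the AML library of each subset, and this ratio was not tested.

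Reads could be confused between related genes where their transcripts share sequence, so exact shared runs were searched in the GENCODE vM21 coding transcripts (GRCm38). The longest run shared by Tbx21 and Eomes was 16 bases, in coding exon 4 of both, at chr11:97100033-97100048 on the minus strand and chr9:118482026-118482041 on the plus strand. It is shown because it bounds how far these transcripts match exactly.
Tbx21 and Eomes shared run: ggctgcacatcgtgga
The runs shared by Prdm1 and Zfp683 (15 bases) and by Tbx21 and Runx3 (16 bases) were of like length. Zeb2 and Runx3 shared 35 bases, an alternating run of a and c outside the coding part. The read length is not given in the sources used here.

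Zeb2 RNA went the opposite way to Tbx21 and was less abundant in the DNAM-1+ subset. The normal spleen gave 38.5 against 47.4 FPKM and the AML spleen 44.6 against 54.9 FPKM, log2 ratios of -0.29 in each. Within a spleen the DNAM-1+ library was the lower, but the DNAM-1- normal library (47.4) lay only a little above the DNAM-1+ AML library (44.6). Irf8, whose product is required for antiviral NK responses in mice and is also a central factor of monocyte, dendritic and B cells, behaved alike, at 185 against 248 and 186 against 238 FPKM (log2 ratios -0.42 and -0.36). Both DNAM-1- libraries of Irf8 lay above both DNAM-1+ libraries.

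Zeb2 and Irf8 were, in each spleen, the 2 of 6 members whose DNAM-1+ value was lower by 1.2-fold or more, beside 14% of all genes in normal and 11.4% in AML spleen. The median ratio of the 6 members was 0.09 in normal and -0.11 in AML spleen, against 0.01 over all genes in each. No member reached a 2-fold difference in either direction, which 1.28% of genes did upward and 3.97% downward in normal spleen, and 0.894% and 3.19% in AML spleen. In the limma fit Irf8 fell by 0.39 (SE 0.06, adjusted p = 0.0079) and Zeb2 fell by 0.29 (SE 0.06, adjusted p = 0.0259), beside 8.38% of all genes. With NK marker scaling, which called 2943 of 9074 genes lower, the limma estimates were -0.60 for Irf8 (adjusted p = 0.000575) and -0.50 for Zeb2 (adjusted p = 0.00207). Without the mean-variance trend neither was called (adjusted p = 0.0503 and 0.0901), and without a floor on low values neither they nor Tbx21 were (adjusted p = 0.123 to 0.135).

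**Figure D2:**
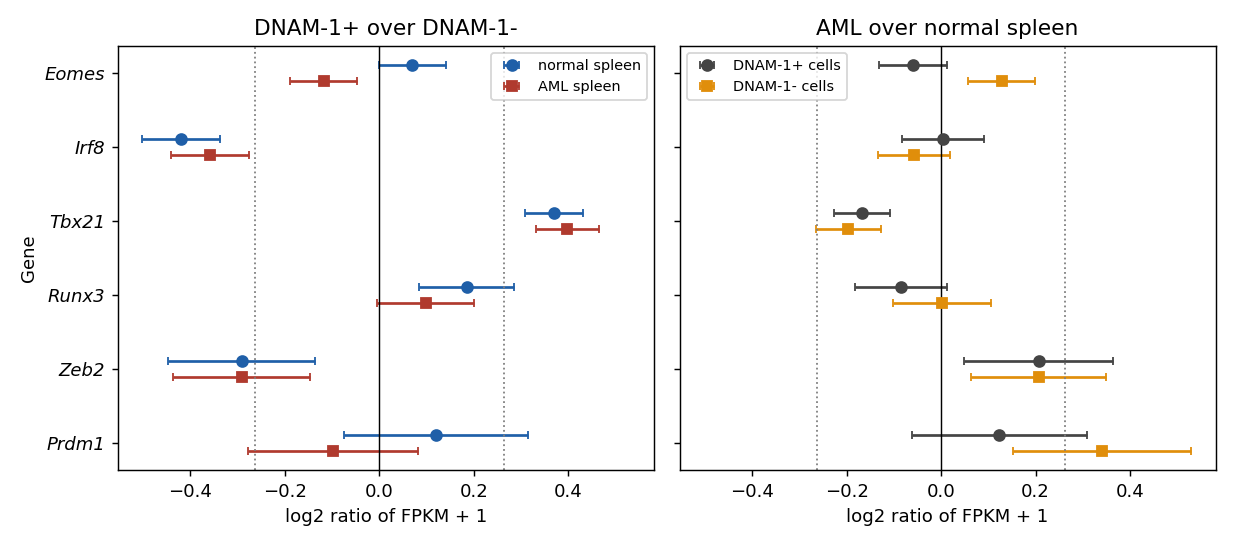
Log2 ratios of FPKM + 1 for 6 genes, DNAM-1+ over DNAM-1- cells (left) and AML over normal spleen (right), with bars for the 95% counting interval from estimated reads only and dotted lines at 1.2-fold. For the bars, reads were estimated with the shortest coding transcript over 1 kb, not the longest. Tbx21 lies right of the dotted line and Irf8 and Zeb2 left of it in both spleens on the left panel, and Prdm1 in DNAM-1- cells alone passes it on the right panel.

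RNA of other cell types moved with these genes. The summed FPKM of 10 B cell markers was 223 and 246 in the DNAM-1+ libraries (normal, then AML) and 1074 and 1035 in the DNAM-1- libraries, and all 10 were detected and fell in DNAM-1+ cells (limma). The 8 non-classical monocyte markers summed to 481 and 537 against 826 and 802, of which Spn, an abundant NK cell gene, made up the larger part in DNAM-1+ cells, and 7 of the 8 fell. Macrophage markers summed to 78.0 and 85.4 against 464 and 379.6, and 8 of 8 tested fell. Of 10 conventional dendritic cell markers, 3 were tested and 2 fell, while Clec9a was at 0.79 FPKM or less in all 4 libraries. Plasmacytoid dendritic cell markers summed to 70.8 and 70.7 against 199 and 189, and 3 of 5 tested fell (Ly6d, Spib and Tcf4), while Siglech was at 0.40 FPKM or less throughout. Of the other myeloid lists, 6 of 6 tested neutrophil markers fell (sums of 91.5 and 65.3 against 168 and 133), and of 4 tested classical monocyte markers Lyz2 and Csf1r fell and 1 rose (299 and 357 against 567 and 602). Plasma cell markers summed to 54.0 and 58.5 against 195 and 299, and 4 of 4 tested fell. T cell markers went the other way, from 85.9 and 80.5 in DNAM-1+ to 36.3 and 31.0 in DNAM-1- cells, and 5 of 6 tested rose. Of the 9 NK cell markers 3 rose and 0 fell, with 5 higher and 0 lower at an unadjusted p below 0.05. Over all 9074 genes tested, 1417 were higher and 1270 lower at that unadjusted threshold, and limma called 7.35% higher and 8.38% lower. The marker Klk1 was at 0 in both AML libraries and Tnfrsf17 in DNAM-1+ normal cells. The part of these cells in the ratios of Irf8, Zeb2 and Tbx21 was not tested.

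**Figure D3:**
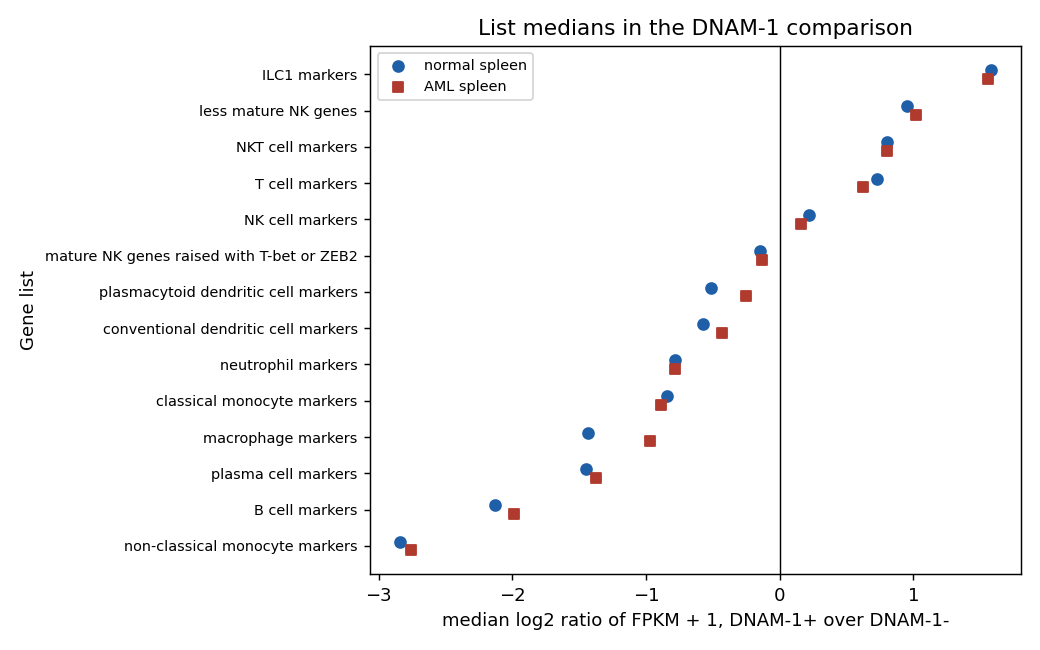
Median log2 ratio of FPKM + 1, DNAM-1+ over DNAM-1- cells, for 12 lists of cell type markers and 2 lists of NK maturation genes, over the genes of a list that reach 1 FPKM in at least 1 library. B cell markers lie at -2.13 and -1.99 and non-classical monocyte markers at -2.84 and -2.76 (normal, then AML), and NK cell markers lie at 0.22 and 0.16.

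Relative to Tbx21 in the same library, the normal spleen gave Irf8 ratios of 0.847 (DNAM-1+) and 1.47 (DNAM-1-), and the AML spleen gave 0.955 and 1.62. Zeb2 was at 0.176 and 0.281 of the Tbx21 level in normal and 0.230 and 0.372 in AML spleen. Both ratios were thus higher in both DNAM-1- libraries than in either DNAM-1+ library.

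**Figure D4:**
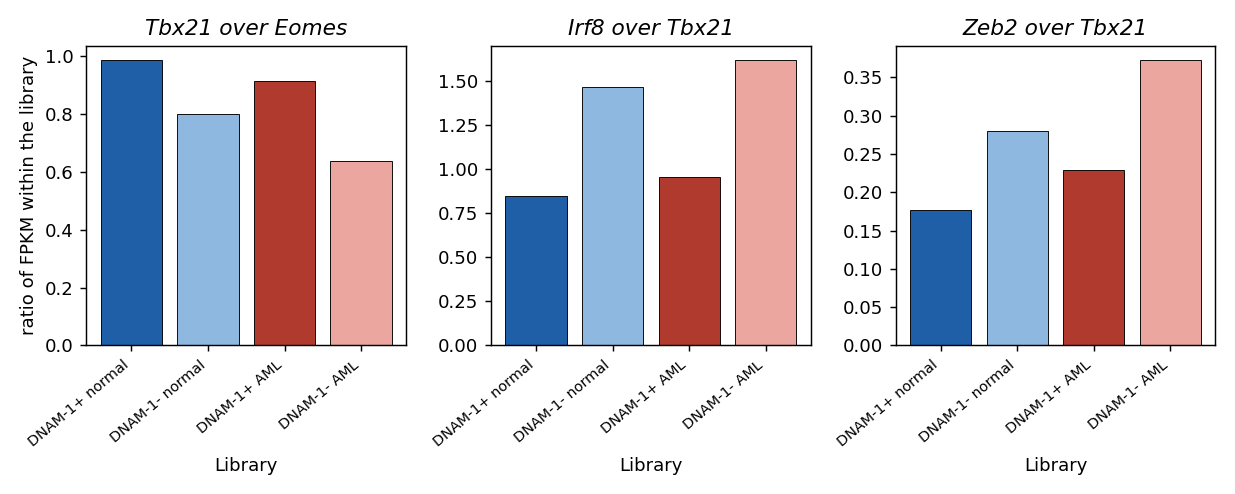
Ratio of FPKM of gene pairs within each library (bars from 0, 1 library each, no error). Tbx21 over Eomes is lowest in DNAM-1- AML cells at 0.638, and Irf8 over Tbx21 and Zeb2 over Tbx21 are higher in both DNAM-1- libraries.

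The promoters of Tbx21 and Irf8 are shown because these members moved furthest and in opposite directions. The 250 bases before the RefSeq start are given 5′ to 3′ in the sense of the gene (GRCm38.p6), at chr11:97115332-97115581 on the minus strand for Tbx21 and chr8:120736108-120736357 on the plus strand for the first of 2 Irf8 starts. Capitals mark matches on either strand to any of 5 motifs, a T-box site (GGTGTGA), a RUNX site (TGTGGT), an interferon-stimulated response element (GAAA repeated after any pair of bases), the E-box bound by ZEB proteins (CAGGTG) and a GC box (GGGCGG).
Tbx21 promoter: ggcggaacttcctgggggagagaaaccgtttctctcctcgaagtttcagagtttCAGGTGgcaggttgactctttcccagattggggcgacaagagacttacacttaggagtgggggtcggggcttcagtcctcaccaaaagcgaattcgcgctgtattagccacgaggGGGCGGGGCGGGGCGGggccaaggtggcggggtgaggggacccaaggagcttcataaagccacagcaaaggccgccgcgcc
Irf8 promoter: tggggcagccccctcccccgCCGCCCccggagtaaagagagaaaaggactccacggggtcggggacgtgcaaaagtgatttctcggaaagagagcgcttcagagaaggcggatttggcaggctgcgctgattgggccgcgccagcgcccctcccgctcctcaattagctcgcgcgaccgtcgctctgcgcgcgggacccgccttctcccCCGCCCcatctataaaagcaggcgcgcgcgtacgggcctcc
The Tbx21 window holds 1 ZEB E-box, which 17.2% of the 32851 promoters in the table hold, and 3 GC boxes, each overlapping the next by a single base. The Irf8 window holds 2 GC boxes, a motif that 32.7% of promoters hold. Neither window holds the T-box, RUNX or interferon motif in these letters, which 3.33%, 14% and 2.98% of promoters hold. A match describes letters and is no evidence of binding.

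Runx3, which with its partner CBFbeta controls NK receptor genes and cytokine responses, was at 104, 91.8, 98.4 and 91.9 FPKM. Its DNAM-1+ libraries were the higher pair, with log2 ratios of 0.18 and 0.098 that turned to -0.054 and -0.087 with NK marker scaling, and limma gave 0.14 with a 95% interval from -0.01 to 0.29 (adjusted p = 0.189). Prdm1 was at 19.9, 18.2, 21.8 and 23.4 FPKM, with overlapping subsets, and its log2 ratio was 0.12 in normal (-0.11 with NK marker scaling) and -0.098 in AML spleen. The limma estimate for Prdm1 was 0.01, with an interval from -0.18 to 0.20 (adjusted p = 0.944).

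Between spleens, Tbx21 was lower in AML than in normal spleen in each subset, with log2 ratios of -0.17 (DNAM-1+) and -0.20 (DNAM-1-). Zeb2 went the other way, with ratios of 0.21 in each subset, and so did Prdm1 with 0.12 and 0.34. The ratios of Eomes were -0.0595 and 0.13 (-0.028 with NK marker scaling), those of Irf8 0.0046 (-0.098) and -0.057, and those of Runx3 -0.085 and 0.002 (-0.15). The comparisons of the spleens use the same 4 libraries as those of the subsets.

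In DNAM-1+ cells 0 of 6 members were 1.2-fold apart between spleens, beside 7.03% of genes that were higher and 7.27% that were lower in AML. A 2-fold difference was reached by 0 members in either subset, beside 0.311% of genes upward and 0.346% downward in DNAM-1+ cells and 0.193% and 0.397% in DNAM-1- cells. In DNAM-1- cells Prdm1 alone was at least 1.2-fold higher in AML, beside 3.88% of genes, and 98.1% of the genes compared had a lower ratio, while 0 members were 1.2-fold lower, beside 7.19% of genes. With NK marker scaling the log2 ratio of Prdm1 was 0.19, short of 1.2-fold. Prdm1 is also the gene of the factor that drives plasma cell differentiation. The summed FPKM of 7 plasma cell markers went from 195 to 299 in DNAM-1- cells and from 54.0 to 58.5 in DNAM-1+ cells. In DNAM-1- cells Jchain went from 103 to 206, but Mzb1 from 29.4 to 30.1, Xbp1 from 43.4 to 43.0 and Irf4 from 13.45 to 12.23. The median log2 ratio of the 7 markers there was 0.03, and limma called 0 of the 4 tested for AML. Their part in the Prdm1 ratio was not tested.

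The AML coefficient of the limma fit called 0 of 6 members, beside 0.0661% of all genes that rose and 0.287% that fell. At an unadjusted p below 0.05 there were 3 members, Tbx21 (-0.18, SE 0.06, adjusted p = 0.316), Zeb2 (0.21, SE 0.06, adjusted p = 0.294) and Prdm1 (0.23, SE 0.08, adjusted p = 0.34). Over all 9074 genes tested, 492 were higher and 644 lower at that unadjusted threshold. With NK marker scaling the limma estimate of Tbx21 was -0.31 and was called (adjusted p = 0.0497), while Zeb2 was at 0.08 (adjusted p = 0.485), Prdm1 at 0.11 (adjusted p = 0.414), Irf8 at -0.16 (adjusted p = 0.185) and Runx3 at -0.17 (adjusted p = 0.161). That scaling called 13 of 9074 genes higher and 222 lower.

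Of 10 genes known to be raised as NK cells mature under T-bet or ZEB2, 0 rose and 2 fell in DNAM-1+ cells (limma). Of all genes 7.35% rose and 8.38% fell. At an unadjusted p below 0.05 the counts were 0 and 5, beside 1417 and 1270 of the 9074 genes tested. The median of the 10 was -0.16, against 0.01 over all genes tested. The mast cell protease gene Cma1, a marker of mature mouse NK cells, fell by 0.55 (adjusted p = 0.0024; 119 against 168 and 130 against 198 FPKM). The chemokine receptor gene Cx3cr1, another such marker that monocytes also express, fell by 0.26 (adjusted p = 0.04; 35.5 against 42.2 and 43.8 against 53.1 FPKM). S1pr5, which carries mature NK cells out of lymphoid organs, was at 113 against 144 and 131 against 144 FPKM and was not called (adjusted p = 0.0756), nor was Itgam, the gene of CD11b (162 against 186 and 184 against 215 FPKM, adjusted p = 0.0629). For AML against normal spleen 0 of the 10 were called by limma. At an unadjusted p below 0.05, 7 were higher and 0 lower, beside 492 and 644 of the 9074 genes tested. The median ratio of the 10 was 0.19 for the DNAM-1+ and 0.24 for the DNAM-1- subset. The 9 NK cell markers, which share Prf1 and Gzma with this list, had a median limma estimate of 0.12 for AML, with 2 higher at that threshold. Klrg1, a receptor gene of late maturation, was at 109, 98.9, 134 and 131 FPKM, highest in both AML libraries.

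Among 10 genes of less mature NK cells, 7 rose and 2 fell in DNAM-1+ cells (limma), with a median of 0.99. Of all genes 7.35% rose and 8.38% fell. The furthest were the interleukin-7 receptor gene Il7r (3.68, SE 0.08, adjusted p = 2.21e-05), Thy1 (1.75, SE 0.07, adjusted p = 3.71e-05), the chemokine receptor gene Cxcr3 (1.37, SE 0.12, adjusted p = 0.000916) and Cd7 (1.27, SE 0.06, adjusted p = 5.21e-05). T cells also express these genes, and the T cell markers rose beside them. Cd27, which marks the stage before CD11b, was at 67.9 against 38.6 and 63.4 against 36.5 FPKM. The list and the maturation list were chosen with earlier results of these libraries known.

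Of 8 genes linked to Eomes, 1 rose and 2 fell (limma). For this list and the next ones, 7.35% of all genes rose and 8.38% fell. Il2rb, the gene of a receptor chain for interleukin-15 that T-box factors control in mice, rose by 0.31 (adjusted p = 0.0213), and the Ly49 receptor genes Klra4 (295 against 667 and 277 against 646 FPKM, adjusted p = 6.74e-05) and Klra8 (467 against 819 and 430.4 against 825 FPKM, adjusted p = 0.000335) fell. Ly49 genes are near copies of each other that can share reads, so their values are uncertain. Of 5 tested residency genes that Hobit is known to favour, 3 rose: Cd200r1 (5.31 against 0.61 and 5.43 against 0.35 FPKM), Tnfsf10, which encodes the death ligand TRAIL (9.92 against 3.20 and 11.5 against 3.23 FPKM) and the integrin gene Itga1 (5.36 against 1.13 and 5.34 against 1.99). Cd69 of the same list was at 18.2, 22.5, 23.3 and 27.2 FPKM and was not called (-0.25, adjusted p = 0.0531, limma). The 3 genes that rose are also among the ILC1 markers, of which 4 of 6 tested rose, with sums of 91.6 and 96.0 FPKM in DNAM-1+ against 39.9 and 38.5 in DNAM-1- cells, and their part in the list was not tested. Of 3 recirculation genes that Hobit and Blimp-1 lower, Ccr7 fell (2.99 against 18.8 and 4.51 against 15.7 FPKM), beside the fall of the B cell markers, and Klf2 and S1pr1 were not called.

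Among 11 tested partners and relatives of the members, 1 rose and 5 fell (limma), beside 7.35% of all genes that rose and 8.38% that fell. Cbfb, the partner of RUNX3, rose by 0.27 (79.3 against 65.9 and 77.6 against 63.7 FPKM, adjusted p = 0.0304). Spi1, whose product PU.1 pairs with IRF8 in myeloid and B cells, fell by 2.36 (9.57 against 53.9 and 9.24 against 51.0 FPKM, adjusted p = 2.53e-05). Irf4, the nearest relative of Irf8, fell by 1.60, and Bcl6, a repressor that opposes Blimp-1 in B cells, fell by 1.12. Id3, an inhibitor of E proteins like Id2, fell by 1.01. Zeb1, the relative of Zeb2, was at 10.1, 10.3, 9.94 and 9.48 FPKM and was not called (adjusted p = 0.913).

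Of 18 other NK transcription factors tested, 5 rose and 2 fell (limma), beside 7.35% of all genes that rose and 8.38% that fell. Tcf7, the gene of TCF-1, which marks early NK cells, rose by 0.77 (adjusted p = 0.00146), and Id2, an inhibitor of E proteins needed for NK cells, rose by 0.59 (adjusted p = 0.0017). Gata3 rose by 0.40 (adjusted p = 0.0102), and Bach2, a repressor of effector genes also abundant in B cells, fell by 0.50 (adjusted p = 0.00581).

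The likeness of other genes was measured as the Euclidean distance between log2 profiles centred over the 4 libraries, among 8498 protein-coding genes, which is a description of 4 points. The nearest to Tbx21 were Pold2 (distance 0.048) and the chemokine receptor gene Ccr2 (0.058), and 29 genes lay within 0.1. A gene near Zeb2 was Eif2ak4 (0.012), with 27 within 0.1, and for Irf8 the nearest were Cep170 (0.024) and Prdm9 (0.025), with 79. Prdm1 lay nearest to Wdr45 (0.030) and Rap2a (0.033), with 72 genes within 0.1. The flatter profiles of Eomes (nearest Phf21a, 0.012, and Prkaa1, 0.013) and Runx3 (nearest Gemin5, 0.010, and Dcaf6, 0.013) had 622 and 704 genes within 0.1.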

How the data were processed

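Total RNA of sorted splenic NK cells was sequenced in 4 libraries on the BGISEQ-500 platform, per the labels' protocols, and each group is 1 library named by its source label. The authors deposited FPKM per gene in 2 decimals under NCBI Gene numbers, per the file headers. Bowtie2 2.2.5 and RSEM are named in the submitters' processing notes without a role, and the genome build and annotation are not given in the sources used here. Each file lists only genes above 0, and an absent gene was taken as 0. Of 17723 gene numbers, 17668 matched a symbol.

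Ratios of 2 libraries are log2(FPKM + 1) differences with no test. Genes whose higher value reached 5 FPKM were counted at 1.2-fold and 2-fold. Testing used limma alone (version 3.58.1 in R 4.3.3), two-sided, on log2(FPKM + 1), with additive terms for subset and spleen and prior variances that follow the mean level. A call needed an adjusted p (Benjamini-Hochberg, all genes) below 0.05. Its 1 residual degree of freedom is the interaction, moderated across genes, so p-values do not measure the spread between mice. Depth came from the FPKM of short microRNA genes (55 to 100 nt): at the fitted depth and a length offset of 35 nt, 91.8% to 95.6% of them were within 0.1 of a whole read count of at most 6, and counting intervals cover counting error only. The intervals used reads estimated with the shortest coding transcript over 1 kb (1762 nt for Zeb2, against 9124 nt for its longest), so they are wider than the longest would give where these differ.

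Named genes are the 7 members, Cd226 and Ncr1, up to 4 called genes of each list by size, genes of the lists shown beside them as values (chosen after their values were seen), and the 2 genes nearest to each member, of which 1 is not reported here. The members and lists were chosen with earlier results of these data known. Alternatives were other pseudocounts, scalings, floors, gene types and no trend. Promoters came from RefSeq (GRCm38.p6), where 6 of 7 members matched, and transcripts from GENCODE vM21.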

Additional observations from a re-analysis of the deposited data

Results flagged for a closer look

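For 2 members, Eomes and Prdm1, the DNAM-1 ratio pointed in opposite directions in normal and AML spleen, and the difference was not tested because no residual degree of freedom is left for it. The log2 ratio of Eomes was 0.070 in normal and -0.12 in AML spleen, a difference of -0.188, and 31.4% of all genes at 5 FPKM or more had a larger one in either direction. For Prdm1 the ratios were 0.12 and -0.098, a difference of -0.217, which 25.5% of genes exceeded. Seen between spleens, Eomes was lower in AML in DNAM-1+ cells (-0.0595) and higher in DNAM-1- cells (0.13), a difference of 0.188, and this is the same quantity. Irf8 (0.0046 and -0.057, a difference of -0.061) and Runx3 (-0.085 and 0.002, a difference of 0.087) also had opposite signs, each ratio being smaller than its counting interval. NK marker scaling lowers the ratios of all genes alike within a comparison and made both ratios of each pair negative. Relative to the median of all genes under that scaling, the DNAM-1 ratios were 0.046 and -0.14 for Eomes and 0.11 and -0.11 for Prdm1. Taking off that median undoes the scaling by construction, so these opposite signs repeat the deposited ones and check nothing.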

How the results depend on the processing

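No pairing by mouse was possible because the labels number no replicates and name no mouse. The spleen term of the limma fit does compare the subsets within normal and within AML spleen. Leaving out a library leaves the limma fit without a residual degree of freedom and was not run. Under the pseudocounts of 0.1 and 5 FPKM, TPM rescaling and median-ratio scaling, the 24 member ratios moved by at most 0.053, and the only change of sign was Runx3 in DNAM-1- cells between spleens (-0.0058 with median-ratio scaling). NK marker scaling, added after seeing the data, moved ratios by up to 0.24 and changed 7 signs. It shifted the median of all genes to -0.22 in normal and -0.16 in AML spleen for the DNAM-1 ratios and to -0.087 and -0.15 for the AML ratios, and relative to that shift Tbx21 stood at 0.35 and 0.37, Irf8 at -0.44 and -0.38 and Zeb2 at -0.31 in both spleens. Taking off the shift undoes the scaling by construction, so these values nearly repeat the deposited ratios and check nothing. Of genes past 1.2-fold, 47.5% and 49.9% were higher in DNAM-1+ cells as deposited and 9.6% and 12.6% with this scaling; for AML the shares were 49.2% and 35.1%, against 16.4% and 4.9%. With it, 0 members were 1.2-fold higher in DNAM-1+ cells of either spleen, 4 were lower in AML spleen (Eomes, Zeb2, Prdm1, Irf8), and between spleens 1 was lower in each subset (Tbx21) and 0 higher. Counts of all genes past 1.2-fold with this scaling ran from 103 to 3686, by direction and comparison, among 8682 to 8915 genes. Most of these genes were lower, and the member counts were not read as a result about the members. Median-ratio scaling moved the first share to 38.3%, and turned the limma estimate of Prdm1 to -0.02 (-0.19 with NK marker scaling).

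The limma fit called 667 genes higher and 760 lower for DNAM-1 and 6 and 26 for AML. Without a floor it called 0 in each direction, members included, with 1576 and 1849 genes for DNAM-1 and 552 and 717 for AML at an unadjusted p below 0.05. With a floor of 20 FPKM it called 434 lower for DNAM-1, and 18 higher and 51 lower for AML. Without the trend it called 321 higher for DNAM-1, 1 and 4 for AML, and 0 members lower, while Tbx21 was called at an adjusted p of 0.0499. Protein-coding genes alone gave 26 and 81 for AML, and a pseudocount of 5 FPKM gave 17 lower. NK marker scaling gave 270 and 2943 for DNAM-1, with 0 members higher, and 13 and 222 for AML, with 1 member lower. Over 9 alternatives the adjusted p of the DNAM-1 difference lay between 0.00172 and 0.123 for Tbx21, 0.000575 and 0.128 for Irf8, and 0.00207 and 0.135 for Zeb2, each called in 7, with no change of direction. Counts of all genes past 1.2-fold, 342 to 1251 as reported, were 944 to 2732 without a floor, 89 to 522 with a floor of 20 FPKM, 157 to 968 with a pseudocount of 5 FPKM and 103 to 3686 with NK marker scaling. Apart from these constructions the cause was not tested. Depth limits Prdm1 most, with a counting interval of 0.18 to 0.19 on either side of its log2 ratios.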
